A study of Mus musculus with 8 samples.

Results

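The genes described are the initiation and elongation factors of cytosolic protein synthesis, with their kinases, binding proteins and methyltransferases, in mouse adrenal glands. They were chosen by symbol: every symbol that begins with Eif or Eef followed by a digit was taken, except the X- and Y-linked pair Eif2s3x and Eif2s3y, if its estimated counts over the 8 libraries summed to at least 80. This gave 62 members of the 18846 genes in the files, out of 64 matching symbols. No matching symbol fell under the threshold. The member with the lowest total was Eif5a2 with 1031 counts, followed by Eif4ebp3 with 2113 and Eef1akmt1 with 2145, and the highest was Eef1a1 with 928752.

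The glands came from mice labelled Siah1a -/- (Siah1a encodes a RING-type E3 ubiquitin ligase), called KO, and from wild-type mice (WT), all of the strain labelled 129SVEV. In each genotype 2 animals received an intraperitoneal injection of ACTH (adrenocorticotropin, which stimulates steroid synthesis in the cortex) at 100 µg/kg for 1 hour, and 2 animals were untreated. In every group 1 library came from an animal labelled male and 1 from an animal labelled female, and the labels name neither an age nor a vehicle injection for the untreated animals. Whole glands were used, so cortex, medulla and surrounding tissue are read together, and fewer cells of a type and less RNA per cell cannot be told apart.

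Initiation begins when eIF2, carrying initiator tRNA and GTP, joins the small ribosomal subunit with eIF1, eIF1A, eIF3 and eIF5, while the cap-binding complex eIF4F brings in the mRNA. eIF2B recharges eIF2 with GTP, the eIF2 kinases block that step under stress, and the 4E-binding proteins hold eIF4E away from the scaffold eIF4G. In elongation eEF1A delivers aminoacyl-tRNA, the eEF1B subunits recharge it, eEF2 moves the ribosome along, and eEF2 kinase inactivates eEF2. Many of these mRNAs, like those of ribosomal proteins, start with a cytosine followed by a run of pyrimidines (5′ TOP mRNAs), through which mTORC1 controls their translation.

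Library totals ranged from 8020111 to 29568950 estimated counts. Siah1a itself stood at 17.4 to 25.2 CPM (counts relative to the library total after TMM scaling) in the KO libraries and at 26.1 to 33.1 CPM in the WT libraries. It was lower in every KO library, but reads remained in all of them, and the sources used here do not state which part of the gene the allele removes, so these counts alone do not establish the loss of Siah1a. All 7 adrenal cortex markers had counts in every library and summed to 38360 to 51210 CPM in KO and 26960 to 45420 CPM in WT libraries, with the lowest sum in the library labelled untreated WT male. Some libraries stood apart. The library labelled untreated WT male held 1721 CPM of the 6 kidney markers, against at most 8.69 CPM elsewhere, and by Xist (388 CPM) and Ddx3y (3.06 CPM) it did not match its sex label. The ACTH-treated WT library labelled female held 60460 CPM of the 6 liver markers, against 121 to 671 CPM elsewhere. The results for KO against WT are therefore also given without both of these WT libraries. The 6 medullary markers summed to 1804 to 7405 CPM in KO libraries and 1999 to 4006 CPM in WT libraries. The part of these cortex and medulla sums in the differences of the members was not tested.

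Levels between members can be compared only per transcript length, as RPKM (reads relative to transcript length and library total, the authors' values summed over the transcripts of a gene). eEF1A1, the main carrier of aminoacyl-tRNA, dominated: Eef1a1 averaged 3396 ± 429 RPKM (SD over 8 libraries) and made up 31.5 to 35.2% of all member counts. Eif1, which guards start codon choice, followed at 488 ± 82.3 RPKM, Eef2, the translocase, at 452 ± 46.7 RPKM, and Eif4a1, the RNA helicase of eIF4F, at 394 ± 70.3 RPKM. These 3 means lay within each other's spread over libraries or close to it. Of the 75-base stretches of Eef1a1, Eif1 and Eif4a1, 41.7%, 25.6% and 62.9% also occur in transcripts of other genes, so their reads may be shared. Eif5a, a hypusine-carrying factor that helps peptide bond formation, averaged 314.5 ± 59.6 RPKM.

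Paralogs differed widely in level. On the RPKM scale Eef1a1 was 408 times as high as Eef1a2, the form known from neurons and muscle, and Eif5a was 223 times as high as Eif5a2, which averaged 1.41 ± 0.45 RPKM. Eif1 was 13.8 times as high as Eif1b, and Eif4a1 was 1.82 times as high as Eif4a2. Subunits of one complex were closer. The 5 eIF2B subunit genes lay between 17.7 RPKM (Eif2b3) and 24.8 RPKM (Eif2b5), a ratio of 1.4. The 14 eIF3 subunit genes lay between 34.4 RPKM (Eif3j1) and 149.9 RPKM (Eif3e), a ratio of 4.35. Within eIF2, however, Eif2s2 (the beta subunit) was 5.97 times as high as Eif2s1 (the alpha subunit). Among the regulators, the 4 eIF2 kinases lay between 4.01 RPKM (Eif2ak4) and 17.6 RPKM (Eif2ak1) and Eef2k, the eEF2 kinase, averaged 4.63 ± 1.70 RPKM. Eif4ebp1, a 4E-binding protein, stood higher at 44.9 ± 8.91 RPKM, above all 5 eIF2B genes.

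**Figure D1:**
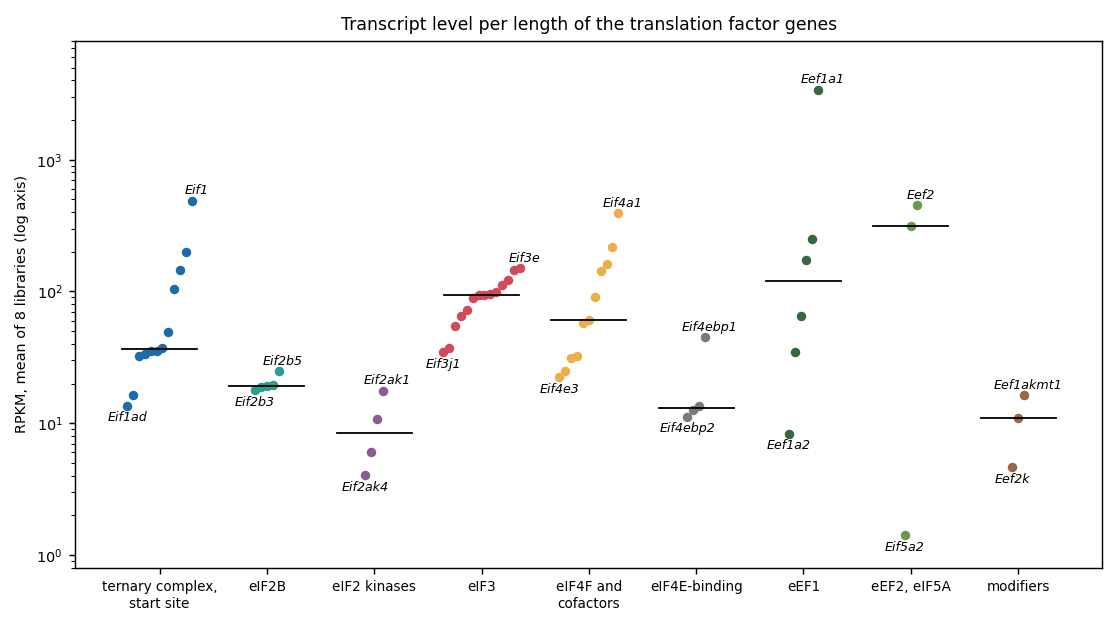
Mean RPKM over the 8 libraries (log axis) of the 62 members, 1 point per gene, grouped by role, with a line at the median of each role. Eef1a1 stands at 3396 RPKM, Eif5a2 at 1.41 RPKM, and the 5 eIF2B genes fall between 17.7 and 24.8 RPKM.

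Members varied little between libraries. The SD of log2 CPM over the 8 libraries had a median of 0.26 over members and 0.53 over all 15361 tested genes, which include many at lower counts. Eef1d, an eEF1B subunit, was the steadiest member (SD 0.10). Eef1a2 varied most (1.31), followed by Eef2k (0.66), Eif4ebp2 (0.52) and Eif5a2 (0.49). All 62 members passed the filter on low counts.

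The first comparison asked how the members differ between KO and WT glands, averaged over treatment. They lay somewhat higher in KO as a group. All 14 eIF3, all 5 eIF2B, all 3 eEF2 and eIF5A genes and all 6 genes placed in the eEF1 group lay above 0. Below it lay 3 of 4 eIF2 kinases and 3 of 4 genes for 4E-binding proteins. The members' share of all counts was 2.23 to 2.45% in the 4 KO libraries and 1.81 to 2.18% in the 4 WT libraries, without overlap. The lowest WT share, 1.81%, was that of the ACTH-treated library labelled female, which held liver transcripts. Without Eef1a1 the share was 1.44 to 1.67% in KO and 1.23 to 1.47% in WT libraries, and these ranges overlapped. The median log2 fold change (KO over WT) was 0.24 over members and -0.04 over all tested genes, and 50 of 62 members lay above 0, against 46.5% of all tested genes.

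No single member passed the test. With edgeR's quasi-likelihood F-test and Benjamini-Hochberg adjustment over all tested genes, 0 of 62 members were called, as were 0.026% of all tested genes (4 genes). At an unadjusted p under 0.05, 16 members were higher in KO (5.33% of all tested genes were) and 0 were lower (8.11%). DESeq2 called 6 members, against 6.16% of all tested genes, and limma-voom called 1, against 0.703%. Leaving out single libraries gave 0 to 3 members lower and 6 to 17 higher at an unadjusted p under 0.05, with 6 higher without the ACTH-treated WT library labelled male, 7 without the one labelled female, 7 without the untreated KO library labelled male and 10 without the ACTH-treated KO library labelled female. All 4 KO libraries lay above all 4 WT libraries in 14 members (4.21% of all tested genes), and below them in 0 (4.71%). In pairs of animals that share treatment and sex label, KO was the higher in all 4 pairs for 27 members (11.3%) and the lower in all 4 for 4 members (12.7%), which were Eif1b, Eif2d, Eif4a2 and Eif4ebp2.

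Without the WT libraries that held kidney or liver transcripts, the members' median was 0.28, with 52 of 62 above 0, and 9 members were higher at an unadjusted p under 0.05 (3.15% of all tested genes). With all 8 libraries, the cytosolic ribosomal protein genes also lay higher in KO, with a median of 0.56. Of the 80 tested, 79 lay above 0 (46.5% of all tested genes did). At an unadjusted p under 0.05, 70 were higher (5.33% of all tested genes), and 0 were called.

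**Figure D2:**
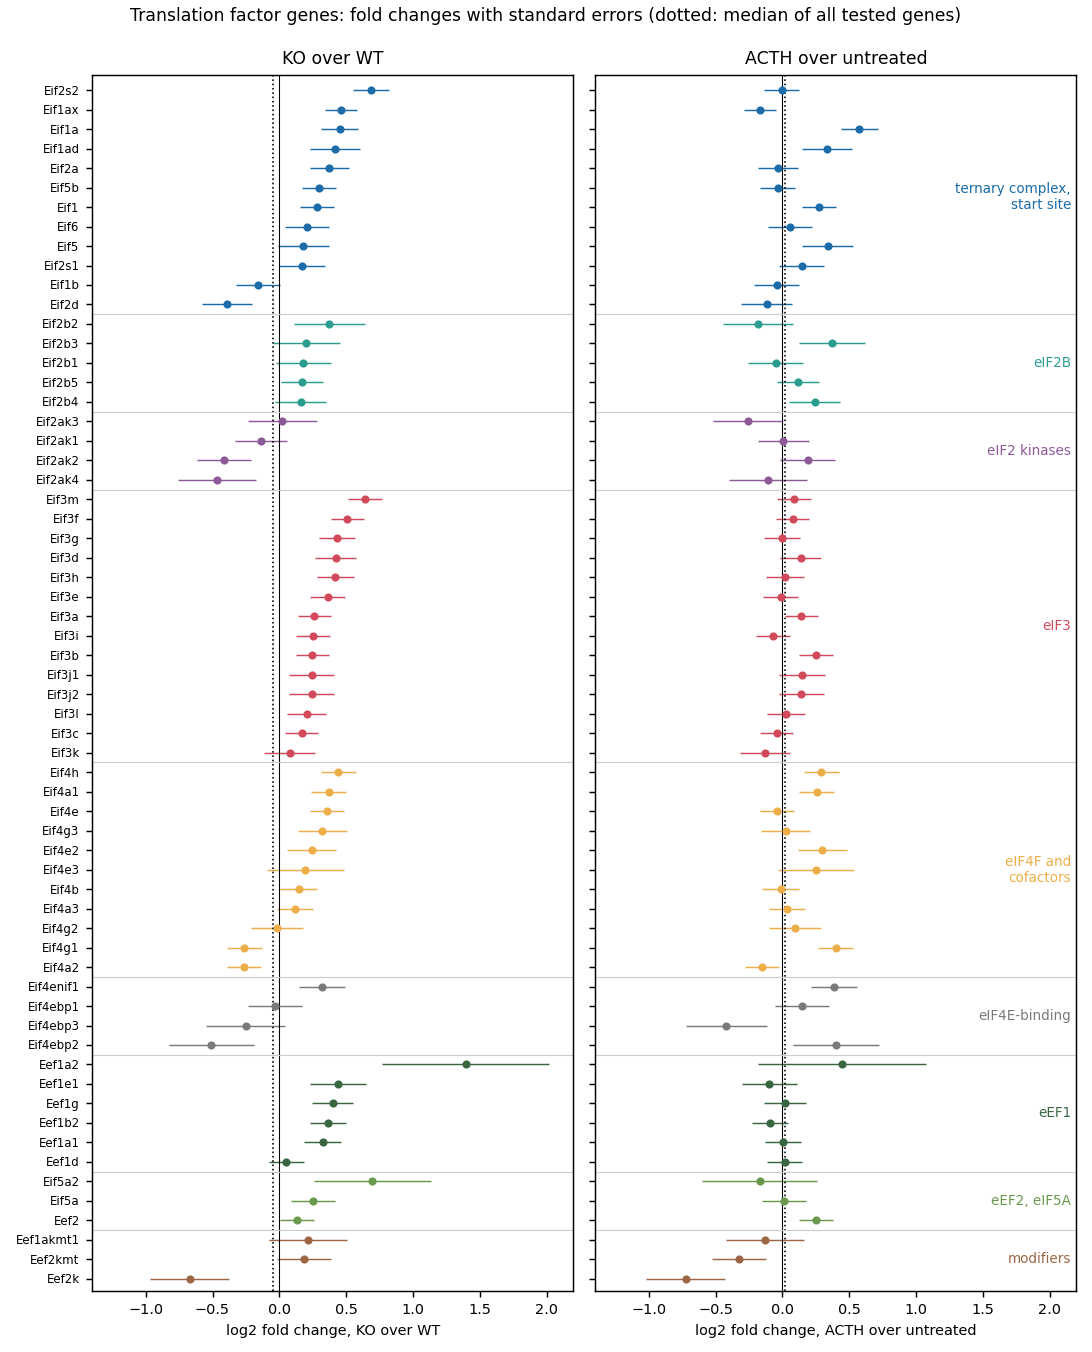
Log2 fold change of each of the 62 members, KO over WT (left) and ACTH over untreated (right), ordered by role and within a role by the left value. Bars are 1 standard error, derived from edgeR's F statistic. In the left panel all 14 eIF3 genes and all 6 genes placed in the eEF1 group lie above 0. Of the 4 eIF2 kinases 3 lie below it, and no point passed the adjusted test.

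Among the factors of the ternary complex and start site, 10 of 12 lay above 0 (median 0.29), against 46.5% of all tested genes. Eif2s2 encodes the beta subunit of eIF2, which binds initiator tRNA. It stood at 823 and 706 CPM in ACTH-treated KO glands and 781 and 614 CPM in untreated KO glands (labelled male, then female, here and in later sentences), against 448 and 412 CPM in ACTH-treated WT and 504 and 448 CPM in untreated WT. Every KO library lay above every WT library. The log2 fold change was 0.69 (SE 0.13), 1.61-fold, with the smallest p of all members, and did not pass (edgeR, adjusted p = 0.112, and 4.75e-05 to 0.352 over the 16 alternatives). Part of its sequence, 22.4% of its 75-base stretches, also occurs in another transcript (Gm9892), so its reads may be shared.

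Both eIF1A genes lay higher in KO. Eif1ax, the X-linked copy, had 138, 116, 144.5 and 129 CPM in KO glands (ACTH-treated male and female, then untreated male and female), against 91.0, 85.8, 112 and 94.5 CPM in WT glands. The lowest KO library was just above the highest WT library, and the difference did not pass (log2 fold change 0.46, SE 0.12, edgeR, adjusted p = 0.196). Eif1a, the other copy, averaged 140 ± 29.9 CPM in KO and 103.5 ± 29.1 CPM in WT (SD, n = 4), with overlapping groups (0.45, SE 0.14). Eif1 averaged 770 ± 125 and 630.5 ± 73.8 CPM in KO and WT (0.28, SE 0.13). Eif2d, which can place initiator tRNA without GTP, had the lowest fold change of these factors (-0.39, SE 0.19), at 33.4 ± 5.23 CPM in KO and 43.9 ± 5.79 CPM in WT.

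The products of the 14 eIF3 subunit genes together form the scaffold on the small ribosomal subunit. All 14 genes lay above 0 (median 0.26), against 46.5% of all tested genes. At an unadjusted p under 0.05, 6 were higher (5.33% of all tested genes), and 0 were called. Their summed level was 3396 and 3247 CPM in ACTH-treated KO glands and 3149 and 2937 CPM in untreated KO, against 2494 and 2649 CPM in ACTH-treated WT and 2563 and 2556 CPM in untreated WT. The lowest KO sum exceeded the highest WT sum. Eif3m had 276, 277, 233 and 239 CPM in KO glands and 164, 158, 163 and 171 CPM in WT glands, in the library order used above. The WT values were nearly level and all KO values lay above them (0.64, SE 0.13, edgeR, adjusted p = 0.124), though 21.3% of its 75-base stretches also occur in Gm7658.

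Eif3f shares no 75-base stretch with another transcript and gave a like picture. It had 233.5, 211, 195 and 195 CPM in KO glands and 155, 136, 152.5 and 143 CPM in WT glands. No WT library reached the lowest KO library (0.51, SE 0.12, edgeR, adjusted p = 0.171). Eif3d, Eif3e, Eif3g and Eif3h also had all KO libraries above all WT libraries, and were picked out here by that pattern. Eif3e, the most abundant per length, averaged 308 ± 21.9 CPM in KO and 240 ± 15.4 CPM in WT (0.36, SE 0.13). The smallest differences were those of Eif3k (0.08, SE 0.19) and Eif3c (0.17, SE 0.12). Eif3j1 and Eif3j2 cannot be separated: 87.4% of the 75-base stretches of Eif3j2 also occur in Eif3j1, and their count ratio was 1.08 to 1.09 in every library.

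The cap-binding group split within itself. Of 11 genes 8 lay above 0 (median 0.19), against 46.5% of all tested genes. Eif4h, which stimulates the helicase eIF4A, had 609, 471, 427 and 419.5 CPM in KO glands, against 386, 376, 319 and 328 CPM in WT glands. All KO libraries lay above all WT libraries (0.44, SE 0.13, edgeR, adjusted p = 0.219). Eif4e, the cap-binding protein itself, was higher in the same manner, at 215 ± 13.5 CPM in KO and 168 ± 9.46 CPM in WT (0.36, SE 0.13). Eif4g1, the main scaffold, was lower at 353 ± 56.0 CPM in KO and 424 ± 78.5 CPM in WT (-0.26, SE 0.13), with overlapping groups.

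The helicase paralogs lay on opposite sides of 0. Eif4a1 had 1043, 1177, 921 and 830.5 CPM in KO glands and 799, 824, 703 and 736.5 CPM in WT glands (0.37, SE 0.13, edgeR, adjusted p = 0.279). Eif4a2 had 556, 564, 699.7 and 638 CPM in KO glands and 780, 669, 735.5 and 760 CPM in WT glands (-0.27, SE 0.13, edgeR, adjusted p = 0.430). The ratio of Eif4a1 to Eif4a2 counts, which no scaling between libraries can alter, was 1.87 and 2.09 in ACTH-treated KO glands and 1.32 and 1.30 in untreated KO. In WT glands it was 1.02 and 1.23 after ACTH and 0.96 and 0.97 untreated. All KO ratios lay above all WT ratios, and in both genotypes the ACTH ratios lay above the untreated ones. This ratio was picked out after its values were seen and has no test. Of the 75-base stretches of Eif4a1, 62.9% also occur in other transcripts.

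The genes of the exchange factor eIF2B lay above 0, and those of the eIF2 kinases were mixed. Of the 4 eIF2 kinases, which phosphorylate the alpha subunit of eIF2, 3 lay below 0 (median -0.28). So did 8220 of all 15361 tested genes. The kinases' median (KO minus WT) was 0.05 and -0.36 in the ACTH-treated pairs (labelled male, then female), and -0.49 and -0.43 in the untreated pairs. Eif2ak2 (PKR, the double-stranded RNA sensor) averaged 47.6 ± 11.3 CPM in KO and 62.4 ± 5.93 CPM in WT (-0.42, SE 0.21). Eif2ak1 (the haem-regulated kinase) averaged 51.1 ± 3.91 and 56.7 ± 11.3 CPM in KO and WT, and Eif2ak3 (PERK, the kinase of endoplasmic reticulum stress) 32.2 ± 4.30 and 32.1 ± 11.9 CPM. For these 2 kinases the difference was within the spread of the libraries. All 5 eIF2B genes lay above 0, by 0.16 to 0.37, including Eif2b5, the catalytic subunit (0.17, SE 0.16). The value of Eif2b2 (0.37, SE 0.27) rested on single libraries and lay between 0.11 and 0.57 when each was left out.

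Of the 4 genes for 4E-binding proteins, Eif4enif1 (4E-T, which carries eIF4E to processing bodies and the nucleus) lay above 0 at 66.0 ± 15.4 CPM in KO and 52.3 ± 7.62 CPM in WT (0.32, SE 0.17). Eif4ebp1 was level, at 51.3 ± 11.8 CPM in KO and 52.9 ± 8.98 CPM in WT. Eif4ebp2 stood at 19.6 ± 7.97 CPM in KO and 28.0 ± 5.83 CPM in WT (-0.51, SE 0.32), and Eif4ebp3 at 15.2 ± 2.94 and 18.8 ± 7.79 CPM (-0.25, SE 0.30). Of the 75-base stretches of Eif4ebp3, 64.2% also occur in another transcript.

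All 6 genes placed in the eEF1 group (Eef1a1, Eef1a2, Eef1b2, Eef1d, Eef1e1 and Eef1g) lay above 0 (median 0.38), against 46.5% of all tested genes. At an unadjusted p under 0.05, 3 were higher (5.33% of all tested genes). Eef1a1 had 7898, 8220, 8254 and 7631 CPM in KO glands, against 6169, 6570, 6691 and 6145 CPM in WT glands. The groups did not overlap, and the difference (1.25-fold, log2 0.32, SE 0.14) did not pass (edgeR, adjusted p = 0.357). Its reads may be shared, as 41.7% of its 75-base stretches also occur in other transcripts, and for Eef1g this share was 56.5%. Eef1b2, which recharges eEF1A, averaged 448.5 ± 33.7 CPM in KO and 349 ± 29.8 CPM in WT (0.36, SE 0.13), also without overlap. Eef1d was nearly level at 134 ± 6.02 and 129 ± 12.1 CPM (0.05, SE 0.13).

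Eef1a2 had the highest fold change of the members (1.39, SE 0.62) and the widest spread. It stood at 62.2 and 10.96 CPM in ACTH-treated KO glands and 31.8 and 17.5 CPM in untreated KO, against 18.5 and 7.87 CPM in ACTH-treated WT and 2.94 and 11.4 CPM in untreated WT. The groups overlapped. In the same library order the 6 medullary markers summed to 6395, 1804, 7405 and 6050 CPM in KO and 4006, 2475, 1999 and 2785 CPM in WT glands. The 6 neuronal markers summed to 402 CPM in the ACTH-treated KO library labelled male and to 29.3 to 79.1 CPM elsewhere. Their part in the Eef1a2 values was not tested.

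Eef2 itself differed by 0.14 (SE 0.13), at 1743 ± 215 CPM in KO and 1583 ± 144 CPM in WT, with overlapping groups. Eif5a (0.25, SE 0.17) and the scarce Eif5a2 (0.70, SE 0.44), at 10.2 ± 1.83 CPM in KO and 6.44 ± 1.94 CPM in WT, were higher without passing. Eef2k had the lowest fold change of all members (-0.67, SE 0.30), at 28.1 ± 13.8 CPM in KO and 40.7 ± 6.68 CPM in WT. The KO and WT values lay apart only among ACTH-treated glands. Eef1akmt1, a lysine methyltransferase of eEF1A, averaged 17.4 ± 3.60 CPM in KO and 14.9 ± 1.83 CPM in WT. Its log2 fold change lay between 0.06 and 0.31 when single libraries were left out.

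**Figure D3:**
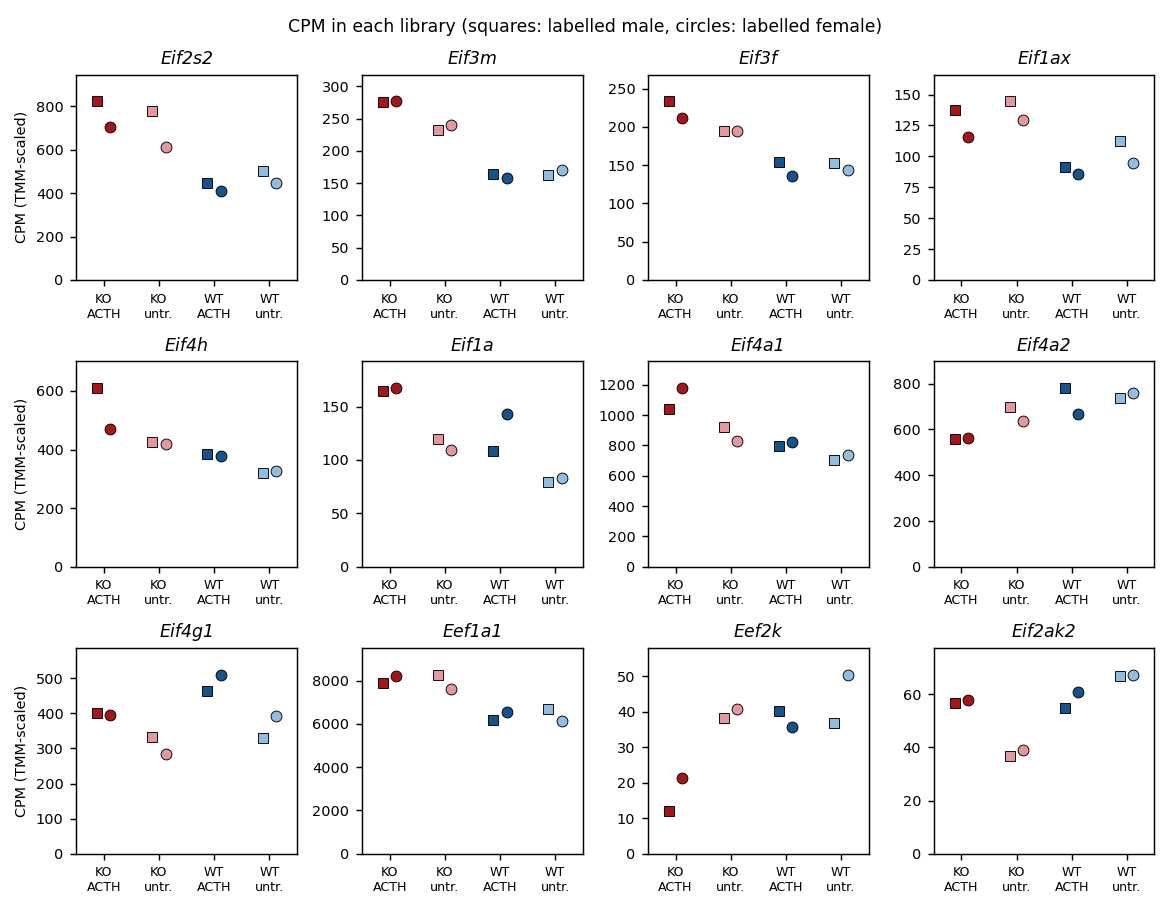
CPM (TMM-scaled, axes from 0) of 12 members in each of the 8 libraries, with KO groups left of WT groups and squares for animals labelled male, circles for female. Eif2s2, Eif3m and Eif3f are higher in all 4 KO libraries, Eif4a2 runs against Eif4a1, and Eef2k is lowest in the 2 ACTH-treated KO glands.

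TOP mRNAs are defined by their first bases, and the members and the ribosomal protein genes lay higher together in KO. The start regions of Eif2s2, Eif3m and Eif3f, which had the smallest p for KO against WT, and of Eef1a1, the most abundant member, are therefore printed here. Each is 60 bases, from 40 before to 20 after the RefSeq start (GRCm38.p6), 5′ to 3′, and capitals mark runs of at least 6 pyrimidines that begin with C. They lie at chr2:154892887-154892946 (minus strand, Eif2s2), chr2:105017008-105017067 (minus, Eif3m), chr7:108934375-108934434 (plus, Eif3f), chr9:78481705-78481764 (minus, Eef1a1) and chr15:79075183-79075242 (plus, Eif3l, shown for a tract across the start and another just after it).
Eif2s2: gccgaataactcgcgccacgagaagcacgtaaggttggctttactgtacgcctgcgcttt
Eif3m: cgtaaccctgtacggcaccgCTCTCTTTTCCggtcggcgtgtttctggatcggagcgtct
Eif3f: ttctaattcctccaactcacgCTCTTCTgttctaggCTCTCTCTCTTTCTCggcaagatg
Eef1a1: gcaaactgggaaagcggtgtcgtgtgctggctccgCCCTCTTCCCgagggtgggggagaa
Eif3l: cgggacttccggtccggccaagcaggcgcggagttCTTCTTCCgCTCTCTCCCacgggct

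A start region was at hand for 48 of the 62 members. Between -10 and +40 around the start, a run of at least 6 pyrimidines beginning with C was found in 20 of these 48 (41.7%), in 37.0% of the tested genes with a start region and in 36.8% of all 27025 genes in the RefSeq table. A run of at least 8 was found in 12 of the 48 members, against 16.3% of the tested genes and 15.6% of all genes. Eif3f held a run of 15 and Eef1a1 a run of 10 across the start, while Eif2s2 held none and the run of Eif3m lay upstream of the searched stretch. Eif1ax and Eif4h, which came next by p for KO against WT, held none. Nor did Eef1b2, which is known as a TOP mRNA. Whether the RefSeq start is the first base of each mRNA in these glands was not tested. A run found here therefore does not establish a TOP mRNA, and the lack of a run does not exclude it. The median log2 fold change (KO over WT) was 0.26 in the 20 members with a run of at least 6 and 0.24 in the 28 without, and 0.29 in the 12 with a run of at least 8 and 0.21 in the 36 without. Of 9 members known as TOP mRNAs from the literature (Eef1a1, Eef1b2, Eef1d, Eef1g, Eef2, Eif3e, Eif3f, Eif3h and Eif4b), all 9 lay above 0. Their median was 0.36, and 46.5% of all tested genes lay above 0. At an unadjusted p under 0.05, 6 were higher (5.33% of all tested genes), and 0 were called.

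Within matched pairs the shift was seen each time, though its size varied. The members' median log2 difference (KO minus WT) was 0.36 and 0.19 in the ACTH-treated pairs (labelled male, then female) and 0.26 and 0.15 in the untreated pairs, while that of all tested genes lay between -0.07 and 0.00. That of the ribosomal protein genes lay between 0.48 and 0.62 in the same 4 pairs. The untreated pair labelled male contains the WT library that did not match its sex label.

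**Figure D4:**
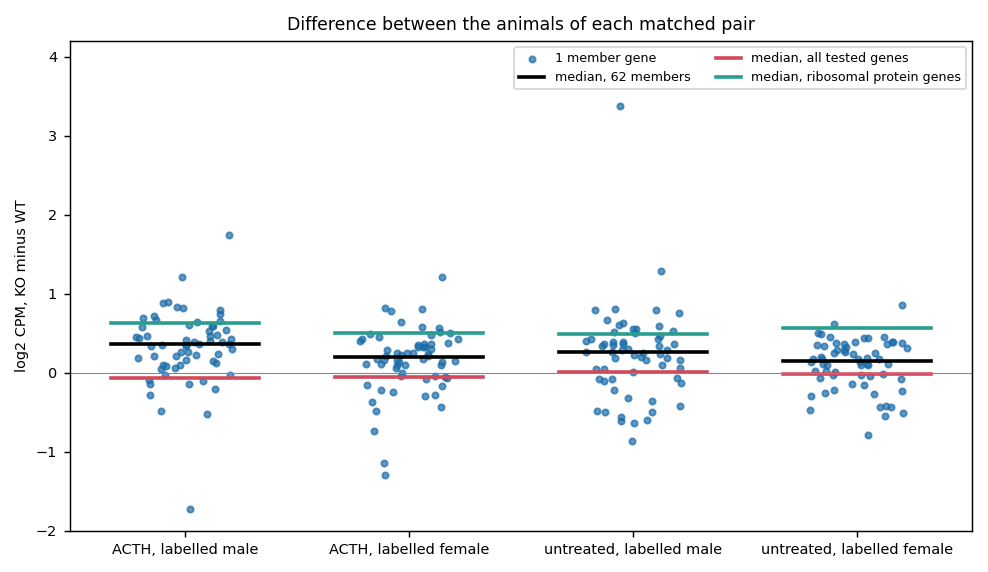
Difference in log2 CPM, KO minus WT, between the 2 animals of each pair that shares treatment and sex label, 1 point per member, with lines at the medians of the 62 members, of all tested genes and of 80 ribosomal protein genes. The black line lies above the red line in all 4 pairs and below the green line in each.

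Eif2s2 and Eif3m were among the members with the smallest p within each treatment. Among untreated glands 44 of 62 members lay above 0 (50.1% of all tested genes), with 4 higher (2.2%) and 1 lower (2.64%) at an unadjusted p under 0.05. Leaving out single libraries left 0 to 3 higher members, 0 in 5 of 8 cases, and 1 lower member in all 8. The lower one in the fit of all libraries was Eif2ak2, at 36.9 and 38.9 CPM in untreated KO glands against 66.9 and 67.3 CPM in untreated WT glands (-0.83, SE 0.22). The first of these WT values is from the library that held kidney transcripts, and without it the difference rests on 1 untreated WT gland. Without both WT libraries that held kidney or liver transcripts, the members' median among untreated glands was 0.12, against 0.17 with all libraries. Eif2s2 (0.55, SE 0.20) and Eif3m (0.50, SE 0.19) came next, and edgeR called 0 members and 0% of all tested genes. Among ACTH-treated glands 49 members lay above 0 (44.8%), with 5 higher (2.81%) and 1 lower (5.42%), and 1 to 6 higher and 0 to 2 lower without single libraries. Eif2s2 (0.83, SE 0.20) and Eif3m (0.78, SE 0.19) again had the smallest p, and edgeR called 0 members and 0.00651% of all tested genes, while DESeq2 called 3 members and 3.26% of all tested genes. With 2 animals a group these fits borrow the spread of all 8 libraries.

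The lower member after ACTH was Eef2k, whose product phosphorylates eEF2 and slows elongation. It stood at 12.02 and 21.3 CPM in ACTH-treated KO glands, against 40.1 and 35.6 CPM in ACTH-treated WT glands. In untreated glands it stood at 38.2 and 40.9 CPM in KO and 36.8 and 50.3 CPM in WT. Both ACTH-treated KO glands thus lay below the other 6, whose values overlapped between genotypes. The log2 fold change within ACTH was -1.23 (SE 0.34, edgeR, adjusted p = 0.491). The 6 muscle markers summed to 52.7 and 85.0 CPM in these 2 KO glands and to 2.59 to 22.1 CPM in the other 6, and their part in the Eef2k values was not tested.

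The second comparison asked what differed 1 hour after ACTH, averaged over genotype. No member passed the test, and the members' distribution lay near that of all genes. The median log2 fold change (ACTH over untreated) was 0.02 over members and 0.02 over all tested genes, and 37 of 62 members lay above 0, against 52.2% of all tested genes. edgeR called 0 members, against 0.0195% of all tested genes (3 genes). At an unadjusted p under 0.05, 2 members were higher (Eif1a and Eif4g1, against 3.49% of all tested genes) and 1 was lower (Eef2k, 2.62%). ACTH was the higher in all 4 pairs that share genotype and sex label for 10 members (8.14%) and the lower for 2 (7.49%), Eif1ax and Eef2kmt. All 4 ACTH-treated libraries lay above all untreated ones for 2 members (2.1%), Eef2 and Eif4g1, and below them for 0 (1.8%).

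Eif1a had the smallest p. It stood at 164.5 and 167 CPM in ACTH-treated KO glands and 108 and 143 CPM in ACTH-treated WT glands, against 120 and 109 CPM in untreated KO and 79.7 and 83.3 CPM in untreated WT. Within each genotype both ACTH-treated glands lay above both untreated glands, by 0.53 in KO (SE 0.21) and 0.62 in WT (SE 0.22). The average was 0.57 (SE 0.14, edgeR, adjusted p = 0.631, and 0.0863 to 1 over the 16 alternatives). Its X-linked counterpart Eif1ax differed by -0.17 (SE 0.12). The ratio of Eif1a to Eif1ax counts was 1.19 and 1.44 in ACTH-treated KO and 1.19 and 1.66 in ACTH-treated WT glands, against 0.83 and 0.85 in untreated KO and 0.71 and 0.88 in untreated WT. Every ACTH ratio exceeded every untreated one. It was picked out after its values were seen and has no test, and of the 75-base stretches of Eif1a 1.68% occur in another transcript.

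Of the 11 genes of the cap-binding group 8 lay above 0 after ACTH (median 0.09), against 52.2% of all tested genes. At an unadjusted p under 0.05, 1 was higher (3.49% of all tested genes), and 0 were called. Eif4a2 was the lowest (-0.15). Eif4g1 stood at 401 and 394 CPM in ACTH-treated KO and 463 and 509 CPM in ACTH-treated WT glands, against 332 and 283 CPM in untreated KO and 330.5 and 394 CPM in untreated WT. The lowest ACTH-treated library was just above the highest untreated one (0.40, SE 0.13, edgeR, adjusted p = 0.728). Eif4h averaged 461 ± 108 CPM after ACTH and 373 ± 58.0 CPM untreated (0.29, SE 0.13), and Eif4a1 961 ± 181 and 798 ± 98.3 CPM (0.26, SE 0.13). Both overlapped between treatments.

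Of the remaining members, Eif4enif1 averaged 67.3 ± 14.4 CPM after ACTH and 51.0 ± 5.88 CPM untreated (0.38, SE 0.17) and Eif1 768 ± 124 and 632 ± 78.9 CPM (0.27, SE 0.13). Eef2 stood at 1993, 1846, 1723 and 1670 CPM in the ACTH-treated glands (KO, then WT), against 1613, 1523, 1403 and 1536 CPM in the untreated ones. The groups did not overlap, and the difference was 0.25 (SE 0.13, edgeR, adjusted p = 0.830). Eef2k was lower on average (-0.72, SE 0.30, edgeR, adjusted p = 0.786), which rested on the KO glands: it differed by -1.28 (SE 0.33) in KO and by -0.17 (SE 0.33) in WT. Without any 1 of the 4 KO libraries, or without the ACTH-treated WT library labelled female, no member was lower at an unadjusted p under 0.05.

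ACTH acts through cAMP, whose factor CREB binds the palindrome TGACGTCA and its shorter core TGACG, so these letters were looked for on both strands in 250 bases before to 50 after the start. The full palindrome was found in 1 of 48 members, Eef2 (2.08%), against 3.42% of tested genes and 2.03% of all genes with a start region. The core, which is contained in the palindrome, was found in 23 members (47.9%), against 33.2% and 23.0%. The median log2 fold change (ACTH over untreated) was 0.01 in the 23 members with the core and 0.03 in the 25 without. Among the members that were higher in all 4 pairs, Eef2, Eif4a1 and Eif1 were chosen for printing because they hold a motif near the start. Eif3b, Eif4g1 and Eif4h, also higher in all 4 pairs, held no core, whereas Eef2k, lower on average, did. Motifs are in capitals (CGTCA is the core on the other strand), again 40 bases before to 20 after the start. The printed regions are Eef2 (chr10:81176591-81176650, plus), Eif4a1 (chr11:69672404-69672463, minus) and Eif1 (chr11:100319909-100319968, plus).
Eef2: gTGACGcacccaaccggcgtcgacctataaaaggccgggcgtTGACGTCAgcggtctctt
Eif4a1: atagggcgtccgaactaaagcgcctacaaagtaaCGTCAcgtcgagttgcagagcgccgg
Eif1: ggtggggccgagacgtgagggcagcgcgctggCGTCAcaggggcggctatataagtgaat

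The same comparison was made within each genotype. In KO glands 41 of 62 members lay above 0 after ACTH (48.7% of all tested genes), with 3 higher (1.96%) and 1 lower (2.27%) at an unadjusted p under 0.05. In WT glands 30 lay above 0 (54.8%), with 1 higher (1.97%) and 0 lower (0.586%). edgeR called 0 members and 0% of all tested genes in either. Without single libraries 0 or 1 member was higher in either genotype. Beside Eif1a and Eef2k, the members with the smallest p were Eif2ak2 in KO (0.60, SE 0.22) and Eif4g1 (0.43, SE 0.21) and Eif4ebp3 (-0.71, SE 0.44) in WT, where both missed an unadjusted p of 0.05.

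The third comparison tested whether the difference after ACTH itself differed between genotypes. No member passed (0 of 62, and 0% of all tested genes, by edgeR). At an unadjusted p under 0.05, 1 member was positive (0.579% of all tested genes) and 0 were negative (1.26%), and 44 members lay above 0 (44.3%). The positive one was Eif2ak2 (0.82, SE 0.31, edgeR, adjusted p = 1), and the count of positive members was 0 when any single library, or both WT libraries with kidney or liver transcripts, were left out. It stood at 56.8 and 57.8 CPM in ACTH-treated KO glands and 36.9 and 38.9 CPM in untreated KO glands, while in WT glands it stood at 54.8 and 60.7 CPM after ACTH and 66.9 and 67.3 CPM untreated. Each genotype's treatment groups were apart, in opposite directions. Eef2k (-1.11, SE 0.47) and Eif2b2 (-0.85, SE 0.47) followed, and neither passed.

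Other genes of the pathway, none of them members, give the setting, and 0 of them were called in any comparison. In the integrated stress response, which eIF2 phosphorylation sets off, 9 of 10 tested genes lay above 0 after ACTH (median 0.58). Of all tested genes 52.2% did. At an unadjusted p under 0.05, 5 were higher (3.49% of all tested genes). Ppp1r15a (GADD34, which directs eIF2 dephosphorylation) averaged 74.3 ± 40.7 CPM after ACTH and 28.1 ± 15.5 CPM untreated (1.31, SE 0.30, edgeR, adjusted p = 0.627). Atf4, the transcription factor of this response, averaged 378 ± 114 and 242 ± 37.1 CPM (0.61, SE 0.15). Both were also higher in KO than in WT, Ppp1r15a by 1.01 (SE 0.30) and Atf4 by 0.54 (SE 0.15), without passing. They were the 2 genes of this list with the smallest p for KO against WT, where the list was mixed. Of its 10 tested genes 6 lay above 0 and 4 below. At an unadjusted p under 0.05, 2 were higher (5.33% of all tested genes) and 1 was lower (8.11%).

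In the comparison of KO with WT, the 10 genes of poly(A) binding and start complex cofactors had a median of 0.15, the 9 of termination and recycling 0.15, and the 8 of hypusine and diphthamide synthesis 0.11. Tpt1, a TOP mRNA, averaged 2491 ± 206 CPM in KO and 1735 ± 55.5 CPM in WT (0.52, SE 0.13, edgeR, adjusted p = 0.183). Denr, which recycles the small subunit, averaged 155 ± 20.4 and 109 ± 9.38 CPM (0.50, SE 0.12). The 12 genes of mTORC1 and MNK signalling had a median of -0.13, with Deptor, an mTOR inhibitor, at 183.5 ± 72.3 CPM in KO and 301 ± 71.0 CPM in WT (-0.74, SE 0.16), and Mknk2, an eIF4E kinase, at 78.6 ± 40.2 and 128 ± 58.0 CPM (-0.69, SE 0.29).

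The 11 genes of mitochondrial and selenocysteine translation lay mostly lower in KO, with a median of -0.43 and 9 of 11 below 0. Of all tested genes 46.5% lay above 0. At an unadjusted p under 0.05, 3 were lower (8.11% of all tested genes). By matched pair their median (KO minus WT) was uneven. It was -0.75 and -0.20 in the ACTH-treated pairs (labelled male, then female), and -0.15 and 0.04 in the untreated pairs. Gfm2, which recycles mitochondrial ribosomes, averaged 41.2 ± 16.5 CPM in KO and 66.2 ± 5.63 CPM in WT (-0.75, SE 0.26), and Gfm1, the mitochondrial elongation factor G, 79.5 ± 10.38 and 108 ± 17.1 CPM (-0.43, SE 0.17). Neither passed edgeR's test (adjusted p = 0.276 and 0.317). After ACTH, Mknk2 averaged 134.5 ± 61.3 CPM, against 72.3 ± 17.1 CPM untreated (0.86, SE 0.29), and Hbs1l, a ribosome rescue factor, 123 ± 6.42 against 93.6 ± 16.5 CPM (0.41, SE 0.16), again without passing.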

How the data were processed

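RNA of 8 adrenal glands was read with a directional kit (NEBNext Ultra Directional) as single 75-base reads, per the labels' protocols. The authors deposited, per the file headers, an estimated count and an RPKM for each RefSeq transcript in 1 table per library. Per the submitters' processing notes the tools were FastQC 0.11, TopHat2 2.0.13, Bowtie2 2.2.5.0 and Partek 6.6 with build mm10. The sources used here do not state how strand and reads with several matches were handled.

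The estimated counts of 28678 transcripts were summed to 18846 symbols and rounded. Genes with low counts were removed with filterByExpr (minimum count 10), which left 15361, and libraries were scaled with TMM (factors 0.888 to 1.065). edgeR 4.0.16 (R 4.3.3) fitted genotype, treatment and sex label to all 8 libraries, with an interaction term for the comparisons within a group, and tested with the quasi-likelihood F-test. Genes with p under 0.05 after Benjamini-Hochberg adjustment over all tested genes count as called. The scripts were tested on simulated data. Each SE of a log2 fold change was derived from the test, as the absolute fold change divided by the square root of the F statistic. Log2 CPM used a prior count of 2 and RPKM had no test.

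DESeq2 1.42.0, limma-voom 3.58.1, other scalings, filters and models and leaving out each library were tried as alternatives. Each combination of genotype, treatment and sex label is represented by a single animal, so the model leaves each gene 4 residual degrees of freedom (3 with the interaction). The quasi-likelihood F-test of edgeR also draws on the spread of the other genes. The share of each transcript's 75-base stretches found in another gene's transcripts was computed from GENCODE sequences. It replaced a planned check of protein identity. Start regions are from RefSeq.

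The members, role groups and gene lists were chosen with earlier results of these data known. Whether the product of each gene, such as Eef1e1 or Eif4a3, is part of the complex that its role group is named after was not checked. Named members are those with the smallest p in each comparison, the most abundant of each role, the 3 with the lowest totals and 4 fixed regulators or minor paralogs (fold changes would have ranked called members, of which there were 0); other genes named for a pattern were picked after their values were seen.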

Additional observations from a re-analysis of the deposited data

Results flagged for a closer look

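Eif2b2, the beta subunit of eIF2B, stood at 22.46 CPM in the library labelled untreated WT male, against 32.9 to 34.5 CPM in the other 3 WT libraries. The gap was 0.866 of the range of the group, above Dixon's 95% critical value for 4 samples. In all, 46 groups of 4 were tested in this way, and chance alone flags about 5% of them. The same library held kidney transcripts and did not match its sex label, and their part in this value was not tested.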

How the results depend on the processing

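The members' median for KO against WT was 0.241 and lay between 0.21 and 0.284 when single libraries were left out, with 48 to 52 of 62 members above 0. Counts of called genes depended on the tool. For KO against WT (4 by edgeR) they were 947 with DESeq2, 108 with limma-voom, 41 with no filter, 7 with no scaling factors and 1 with no sex label, and 0 to 253 without single libraries. For ACTH against untreated (3) they were 123 with DESeq2, 8 with no filter, and 0 with no sex label, with the interaction model or without both WT libraries that held kidney or liver transcripts, and 0 to 23 without single libraries. For KO against WT within ACTH (1) they were 501 with DESeq2, 13 with limma-voom, 11 with no filter, 2 with no scaling factors, 0 with no sex label and 21 without both WT libraries, and 0 to 173 without single libraries. Within untreated glands (0) DESeq2 gave 110, and 0 to 95 were called without single libraries. For ACTH within WT (0) DESeq2 gave 37, no filter 7 and limma-voom 3, and 0 to 70 were called without single libraries. For ACTH within KO (0) DESeq2 gave 98 and the fit without both WT libraries 2. For the interaction (0) DESeq2 gave 8, the fit without both WT libraries 2, and leaving out single libraries 0 to 11. Members called for KO against WT (0) were 6 with DESeq2 (Eif2s2, Eif3m, Eif3f, Eif4h, Eif1ax and Eif4a1, adjusted p 4.75e-05 to 0.0498), 1 with limma-voom (Eif2s2, 0.0421), and 0 without any single library; within ACTH DESeq2 called 3. Members higher at an unadjusted p under 0.05 for KO against WT (16) were 9 without both WT libraries and 6 to 17 without single libraries. After ACTH (2) they were 6 with DESeq2, 6 with limma-voom, 4 with no sex label, 1 with no scaling factors, and 1 to 5 without single libraries (5 without the untreated WT library labelled female, 1 without the untreated KO or the ACTH-treated WT library labelled female). Without single libraries the members' median lay between 0.198 and 0.395 for KO against WT within ACTH, 0.132 and 0.299 within untreated glands, and -0.066 and 0.064 for ACTH within WT. With no scaling factors, chosen after seeing the data like the fit without both WT libraries, it was -0.071 for ACTH, -0.16 for ACTH within WT and 0.222 for the interaction, while the median of all genes was -0.067, -0.088 and 0.027. Without both WT libraries the interaction median was 0.205. Of 736 alternatives for single genes, 729 kept the side of the threshold and 36 turned the sign of an uncalled value of at most 0.184. The causes of these shifts were not tested. The labels give no replicate numbers that groups share, so no replicate block was fitted; animals were matched across groups by sex label, which is a term of the model. Depth limits the scarce members such as Eif5a2.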
